A study of Drosophila melanogaster with 12 samples.

Results

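The genes described here gained Piwi-bound small RNAs when a variant of Armitage (Armi) named KEE replaced the wild type, and kept close to their level when Daedalus (Daed) lost its SAM domain. They were chosen by measured values, namely group means in RPM, reads scaled to the size of the library. The mean with KEE had to be at least 3 times the mean with wild-type Armi, and the mean with deltaSAM could be at most 25% under or 33% over the mean with wild-type Daed. The higher group of each pair needed at least 20 RPM, and ribosomal protein genes, translation factor genes named eIF or eEF and symbols with a colon prefix were left out. The deposited values covered 17469 genes, of which 2615 were eligible, and 143 of these met the rule. A ratio inside the deltaSAM range does not mean that no difference was called there. Of the 143 members 28 were called higher and 10 lower with deltaSAM (limma, adjusted p under 0.05), where 36.2% of all genes tested were called in either direction, and these counts moved with the scaling, as given further on. The set is therefore called here by its rule.

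PIWI-interacting RNAs (piRNAs) are small RNAs that guide PIWI proteins to matching transcripts. In the somatic cells of the Drosophila ovary they load onto Piwi, and many derive from loci dense in transposons, of which flam is the best known, while some are cut from the messenger RNAs of ordinary genes. Armi is an RNA helicase and Daed a mitochondrial outer membrane protein, and both act in the step that cuts piRNA precursors into piRNAs at mitochondria. A gene's value here is thus a measure of Piwi-bound fragments of its transcripts and not of its messenger RNA, which was not measured in these libraries.

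All samples came from OSC, a line of cultured somatic cells from the ovary of Drosophila melanogaster, by immunoprecipitation of Piwi and sequencing of the small RNAs bound to it. Every sample had an RNA interference knockdown and a transfected rescue plasmid with a Flag tag, so no untreated cells and no knockdown without rescue were among the 12 libraries. In the Daed knockdown the plasmid gave Flag-Daed WT or the Flag-Daed deltaSAM mutant. In the Armi knockdown it gave Armi WT-Flag or the Armi KEE mutant-Flag, and the labels do not say what KEE stands for. Each of the 4 groups had 3 libraries. The siRNAs were introduced first, the plasmids followed after 48 h of culture together with more siRNA, and cells were harvested after another 48 h, per the labels. The rescue proteins came from plasmids in 1 cell line, and nothing says that the replicates were separate cultures, so a p here reflects the spread between these libraries and no more.

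The libraries held 1396369 to 3995009 reads, a size inferred from the RPM by taking the smallest value above 0 as a single read. Replicates of a group differed by a chi-square per degree of freedom of 1.21 to 2.18 in 8 of the 12 pairs. In the other 4 pairs, those with replicate 3 of deltaSAM or replicate 3 of the Armi WT rescue, it was 4.93 to 5.93. These 2 libraries thus stood apart from their groups. Replicates of a group were not identical in counts, which does not show that they were separate preparations. Without both of them 138 genes met the rule, 116 of them among the 143. Of the germline markers, vas, nanos, osk, aub, AGO3 and bam gave group means of at most 7.63 RPM. The somatic tj gave 7791 RPM with Daed WT, 16229 RPM with deltaSAM, 12911 RPM with Armi WT and 8669 RPM with KEE. For flam the means were 27237, 20269, 20852 and 8702 RPM in the same order. The armi gene gave piRNA means of 289 RPM with Daed WT, 184 RPM with deltaSAM, 878 RPM with Armi WT and 1553 RPM with KEE. The daed gene gave 30.4, 30.3, 3.45 and 5.67 RPM in the same order, and piwi gave 205.1, 505, 513 and 517 RPM. These are piRNA levels, which do not measure how far a knockdown reached.

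With KEE the members together took 7.39, 7.55 and 7.63% of all library reads in replicates 1 to 3, a mean of 7.52 ± 0.121% (SD, n = 3). With Armi WT they took 1.99, 1.99 and 1.89%, a mean of 1.96 ± 0.0579%. All KEE libraries lay far above all WT libraries, which is what the rule asked for and is given without a test. In the Daed knockdown the members took 1.48, 1.47 and 1.41% with WT and 1.60, 1.57 and 1.45% with deltaSAM, means of 1.45 ± 0.0386% and 1.54 ± 0.0822%, and the groups overlapped. Reads assigned to any gene also took different parts of the libraries, with means of 50.2%, 58.0%, 63.4% and 79.5% for Daed WT, deltaSAM, Armi WT and KEE. As a share of gene reads alone the members took 2.89 ± 0.0305%, 2.65 ± 0.116%, 3.08 ± 0.0278% and 9.46 ± 0.123% in that order. More transcript per cell, more fragments per transcript and fewer reads from other sources cannot be told apart in such shares, and none was tested. The 12 members with the most reads held 40.8% of the members' KEE total and Vha16-1 alone 8.80%, so no single gene carried the sum.

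**Figure D1:**
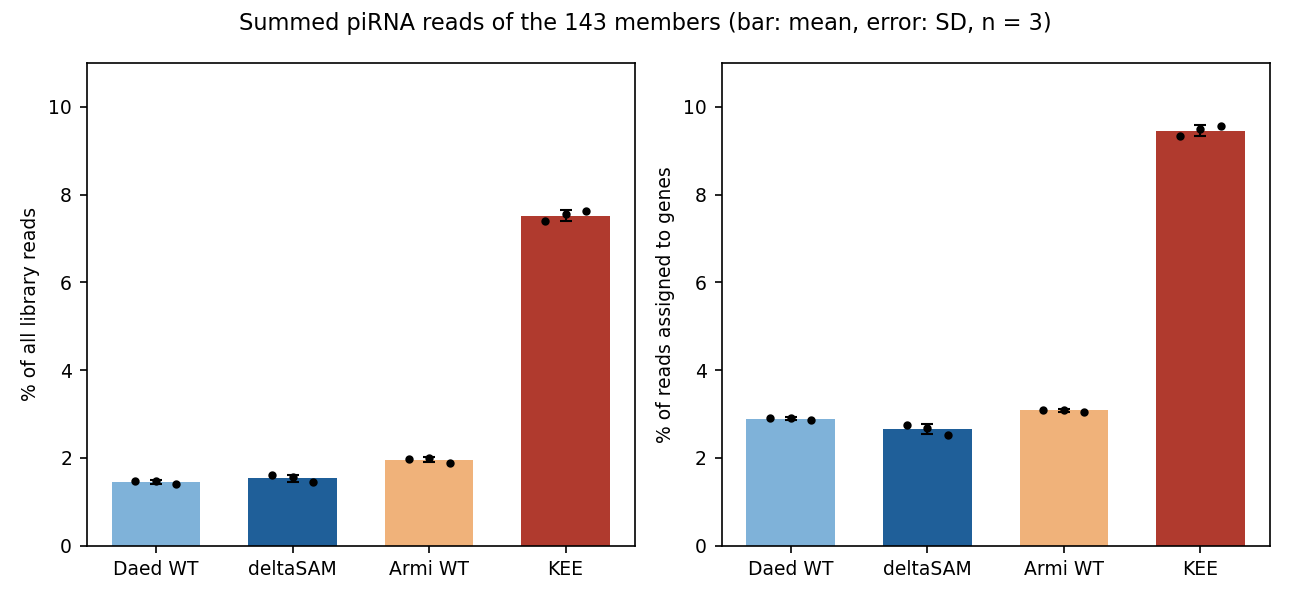
Summed piRNA reads of the 143 members in each library, as a percentage of all library reads (left) and of the reads assigned to genes (right). Bars are means, error bars SD and points the 3 libraries of a group; on both scales the KEE libraries lie at over 7% and the other 9 libraries at under 4%.

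The members' KEE/WT ratio ran from 3.00 to 8.70 with a median of 3.59, against a median of 1.37 over the eligible genes. It was at least 4 in 52 members and at least 5 in 15. Their deltaSAM/WT ratio had a median of 1.05, against 1.14 over the eligible genes. All 143 members were called with KEE by limma at an adjusted p under 0.05, and all were higher. In that comparison 33% of all 8246 genes tested were called higher, 11.7% lower and 44.7% in either direction. The 3 KEE libraries were above the 3 WT libraries in 143 of 143 members and in 41.6% of the genes tested. The difference between the KEE effect and the deltaSAM effect was called, and positive, in 143 members, and in 29.4% of all genes tested, with 11% negative and 40.4% in either direction. The rule used these contrasts, so the counts follow from the choice and nothing is read from them.

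**Figure D2:**
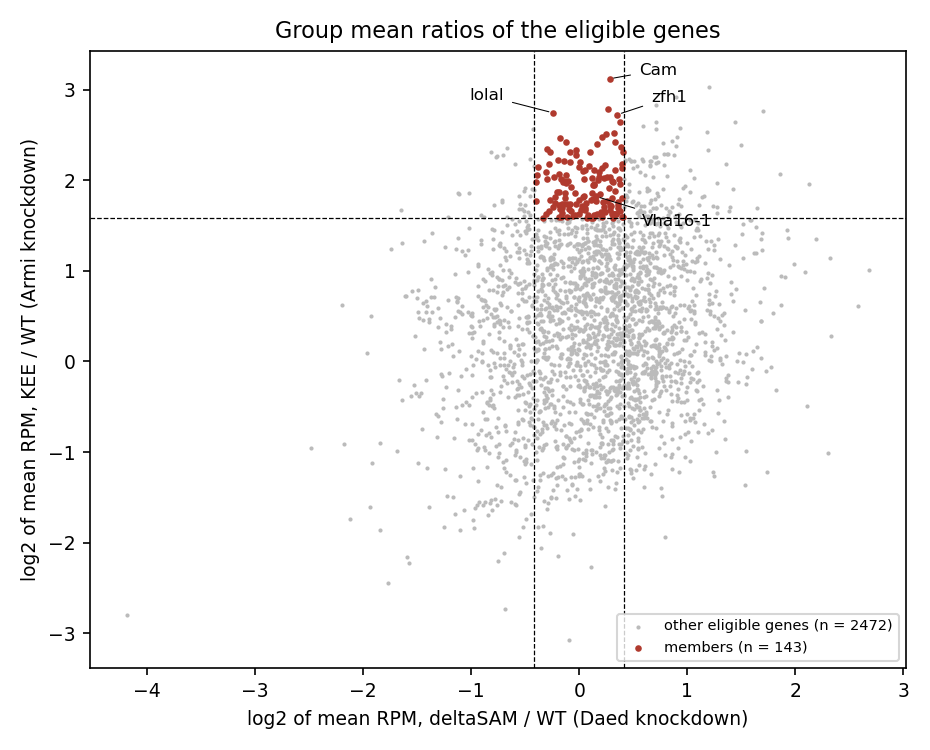
Each point is 1 of the 2615 eligible genes, at the log2 ratio of its mean RPM with deltaSAM to that with WT in the Daed knockdown (x axis) and with KEE to WT in the Armi knockdown (y axis), with the rule's limits as dashed lines. The 143 members fill the box above a KEE/WT ratio of 3 between the deltaSAM limits of 25% under and 33% over WT, with Cam at the top.

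Genes lay close together on either side of each limit. Just inside the KEE/WT limit were TfIIA-L at 3.00009, LamC at 3.00142 and mask at 3.0015, and just outside were Pak3, dpr8 and woc, all at 2.99. At the lower deltaSAM/WT limit wdb (0.759), puf (0.760) and spri (0.762) were inside, and Helz (0.749973), Atf3 (0.748) and CG16711 (0.741) were outside. At the upper limit Sema2a (1.327), cno (1.32) and Rab11 (1.32) were inside, and Asx (1.334), Nop56 (1.34) and Rab1 (1.34) were outside. The level limit kept ari-2, Deaf1 and Bx, whose higher Daed group held 20.3, 20.5 and 20.7 RPM. It left out CG5359, CG8675 and twin at 18.9, 18.5 and 18.1 RPM, although CG8675 had a KEE/WT ratio of 8.43. Membership near a limit is therefore a matter of small differences.

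The KEE/WT limit of 3 was met by 287 eligible genes, or 11%. Of these 287, the members were 49.8%, while 110 genes (38.3%) exceeded the deltaSAM/WT range and 34 (11.8%) lay under it. Among all eligible genes 45.8% lay in the range, 34.9% above and 19.3% under it. The share in the range among genes with a high KEE/WT ratio was thus close to that among all eligible genes.

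Among the members with roles in RNA binding and messenger RNA regulation, 12 in all, KEE/WT ran from 3.11 to 5.71 with a median of 3.97. The gene pAbp (dm6 chr2R:18140078-18147191) encodes the cytoplasmic poly(A)-binding protein. Its piRNAs measured 616, 592 and 510.0 RPM in the WT libraries and 3050.2, 3372 and 3387 RPM with KEE. For pAbp the Daed libraries held 275, 284 and 294 RPM with WT and 359.7, 365 and 288 RPM with deltaSAM. The KEE libraries were 5.71 times WT on average with no overlap, and the Daed groups overlapped. The cold-shock domain protein gene yps (chr3L:12121274-12125150), whose product is part of maternal messenger RNA particles in the ovary, gave 58.5, 67.7 and 59.9 RPM in the WT libraries and 324, 326 and 350.4 RPM with KEE. For yps the Daed libraries held 36.7, 46.4 and 43.0 RPM with WT and 51.1, 54.5 and 52.5 RPM with deltaSAM. KEE was 5.38 times WT with no overlap, and the Daed groups did not overlap, with deltaSAM the higher. Libraries of the Daed groups did not overlap in 66% of the eligible genes. Directions of the members with deltaSAM depended on the scaling, as given further on. The RNA-binding protein gene cpo (chr3R:17919832-18018892), with an annotated span of 99061 bp, gave 445, 474 and 419 RPM in the WT libraries and 1906, 1975 and 1934 RPM with KEE. For cpo the Daed libraries held 244, 220.2 and 215 RPM with WT and 264, 267 and 174 RPM with deltaSAM. All KEE values of cpo were high, at 4.35 times WT, and its Daed groups overlapped, with deltaSAM replicate 3 the lowest of the 6.

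The gene Sxl (chrX:7074550-7098053), the switch gene of female sex determination, whose product regulates splicing and translation, gave 219, 198 and 202 RPM in the WT libraries and 785, 767 and 807 RPM with KEE. For Sxl the Daed libraries held 151, 162 and 165 RPM with WT and 151, 164 and 137 RPM with deltaSAM. KEE was 3.81 times WT, and the Daed groups overlapped. Its paralog ssx was a member too, with 17.7 to 86.2 RPM from Armi WT to KEE. The other members of this role were the translation initiation factor gene NAT1 (169.7 to 694 RPM), enc (69.3 to 285 RPM), the decapping factor gene Edc3 (138 to 462 RPM), the nonsense-mediated decay gene Smg5 (76.1 to 254 RPM), nonA-l (24.4 to 79.8 RPM), Pep (93.7 to 292 RPM) and prage (74.8 to 288 RPM). Each pair gives the mean with WT and with KEE, and the order of means was the same in all 7. The gene nonA-l has a close paralog, nonA, so the split of reads between them is uncertain.

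**Figure D3:**
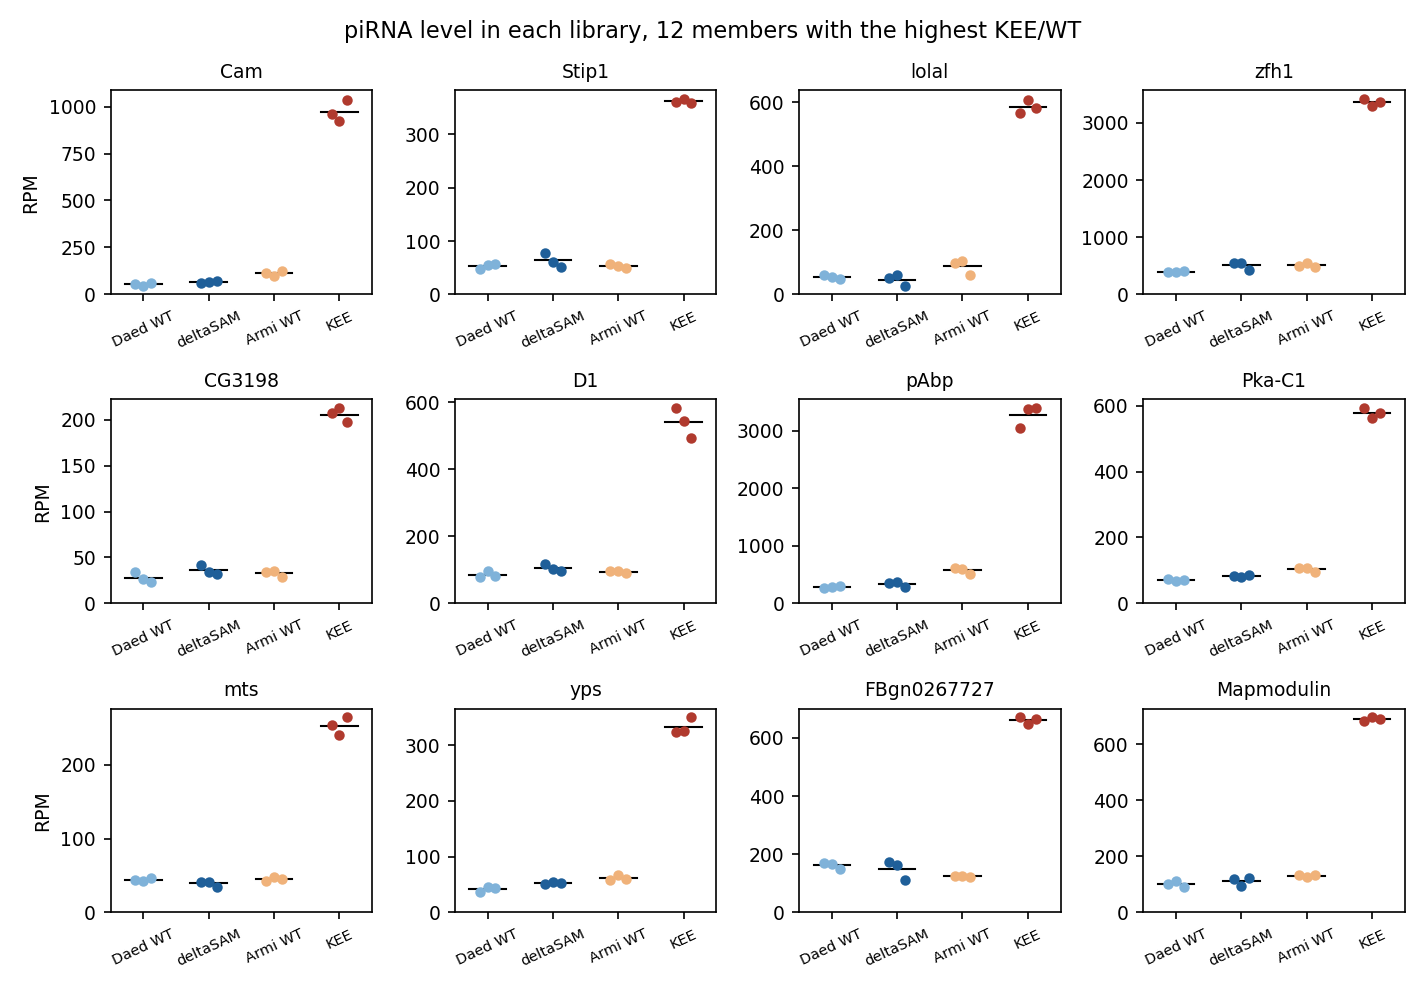
RPM in each of the 12 libraries for the 12 members with the highest KEE/WT ratio; points are libraries, replicates 1 to 3 from left to right, and bars are group means, with an axis of its own for each gene. In every panel the 3 KEE points stand above the other 9.

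Transcription factors and cofactors numbered 19, with KEE/WT from 3.00 to 6.71 and a median of 3.51. The gene zfh1 (chr3R:30765926-30789202), a zinc finger and homeodomain repressor of somatic gonad cells, gave 501, 541 and 479.9 RPM in the WT libraries and 3417, 3299.7 and 3359 RPM with KEE. For zfh1 the Daed libraries held 389, 399 and 405 RPM with WT and 545, 554 and 425 RPM with deltaSAM. KEE was 6.62 times WT, and the Daed groups did not overlap, with deltaSAM the higher. The gene lolal (chr2R:18154095-18158192), which encodes a short BTB domain protein and partner of the GAGA factor, gave 97.4, 103 and 61.4 RPM in the WT libraries and 566, 608 and 581 RPM with KEE. For lolal the Daed libraries held 61.7, 54.1 and 46.5 RPM with WT and 52.3, 59.4 and 25.4 RPM with deltaSAM. KEE was 6.71 times WT. Replicate 3 was the lowest of both the deltaSAM and the Armi WT libraries, the 2 libraries that stood apart, and the Daed groups overlapped. The BTB and zinc finger factor gene chinmo (chr2L:1651258-1704682), which maintains male identity in somatic stem cells of the testis, gave 1403, 1416 and 1498 RPM in the WT libraries and 4384, 4273 and 4691 RPM with KEE. For chinmo the Daed libraries held 641, 628 and 619 RPM with WT and 724, 679 and 769 RPM with deltaSAM. KEE was 3.09 times WT, and the Daed groups did not overlap, with deltaSAM the higher.

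The cell cycle factor gene E2f1 (chr3R:21620304-21660871) gave 91.2, 96.3 and 90.4 RPM in the WT libraries and 368, 359 and 399 RPM with KEE. For E2f1 the Daed libraries held 86.7, 94.4 and 88.1 RPM with WT and 76.4, 77.3 and 65.7 RPM with deltaSAM. KEE was 4.05 times WT, and the Daed groups did not overlap, with deltaSAM the lower. The gene aop (chr2L:2156484-2178754), an ETS repressor that Ras signalling switches off, gave 114.9, 102 and 100.2 RPM in the WT libraries and 368, 359 and 386 RPM with KEE. For aop the Daed libraries held 107, 109 and 98.8 RPM with WT and 93.5, 90.4 and 103 RPM with deltaSAM. KEE was 3.51 times WT, and the Daed groups overlapped. The gene sd (chrX:15804370-15827682), the DNA-binding partner of Yorkie in the Hippo pathway, gave 129, 134 and 116 RPM in the WT libraries and 404, 423 and 429 RPM with KEE. For sd the Daed libraries held 72.4, 81.7 and 73.8 RPM with WT and 103, 102 and 86.1 RPM with deltaSAM. KEE was 3.31 times WT, and the Daed groups did not overlap, with deltaSAM the higher. The homeodomain gene so (chr2R:7419350-7434872), best known for eye development, gave 12.3, 12.8 and 14.3 RPM in the WT libraries and 36.6, 45.7 and 46.1 RPM with KEE. For so the Daed libraries held 24.5, 20.4 and 24.3 RPM with WT and 27.6, 28.9 and 24.8 RPM with deltaSAM. KEE was 3.26 times WT at levels among the lowest of the set. The Daed groups all but touched, at 24.5 and 24.8 RPM, and so was not called with deltaSAM.

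The gene Trf2 (chrX:8409272-8433011), whose product stands in for the TATA-binding protein at some promoters, gave 494, 497 and 419 RPM in the WT libraries and 1842, 1869 and 1936 RPM with KEE. For Trf2 the Daed libraries held 275, 291 and 271 RPM with WT and 319, 339.8 and 287 RPM with deltaSAM. KEE was 4.01 times WT, and the Daed groups overlapped. The other cofactors and general factors were Ncoa6 (191 to 969 RPM from Armi WT to KEE), the acetyltransferase gene nej (224 to 712 RPM), the corepressor gene gro (72.4 to 279.6 RPM), the Mediator gene skd (102 to 314 RPM), the TFIID gene Taf4 (58.6 to 201 RPM), TfIIA-L (17.8 to 53.4 RPM) and CycT of the elongation factor P-TEFb (113 to 443 RPM). The remaining DNA-binding or adaptor genes were phol (48.4 to 193 RPM), Deaf1 (24.0 to 111 RPM), Bx (18.8 to 56.8 RPM) and bun (322 to 1028 RPM). Of all 19, TfIIA-L had the smallest ratio, and its level was low.

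Chromatin and DNA proteins numbered 14, with a median KEE/WT of 3.94. The gene D1 (chr3R:9238083-9240654), an AT-hook protein that binds satellite DNA, gave 97.7, 95.5 and 90.0 RPM in the WT libraries and 584, 546 and 494 RPM with KEE. For D1 the Daed libraries held 77.5, 95.47 and 80.2 RPM with WT and 118, 102 and 95.53 RPM with deltaSAM. KEE was 5.73 times WT. The mean was higher with deltaSAM, but the Daed groups all but touched, at 95.47 and 95.53 RPM. Mapmodulin (chr2R:17866178-17872015) gave 133, 128 and 132 RPM in the WT libraries and 684, 697 and 689 RPM with KEE. For Mapmodulin the Daed libraries held 101, 110.4 and 90.2 RPM with WT and 118, 95.3 and 124 RPM with deltaSAM. KEE was 5.27 times WT with replicates close together, and the Daed groups overlapped. Tet (chr3L:2786207-2879158), whose protein oxidises methylated bases, gave 239, 264 and 255 RPM in the WT libraries and 1298, 1239 and 1276 RPM with KEE. For Tet the Daed libraries held 216, 187 and 192 RPM with WT and 194, 204 and 186 RPM with deltaSAM. KEE was 5.03 times WT, and the Daed groups overlapped.

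Core and accessory subunits of the SWI/SNF remodelling complex, which moves nucleosomes with energy from ATP, gave 3 members. The accessory subunit gene osa (chr3R:17687818-17718350) held 117, 108 and 148 RPM in the WT libraries and 484, 486 and 512 RPM with KEE. For osa the Daed libraries held 120.3, 99.3 and 125 RPM with WT and 93.5, 96.4 and 131 RPM with deltaSAM. KEE was 3.97 times WT, and the Daed groups overlapped. The ATPase gene brm (chr3L:15970082-15982869) held 32.1, 32.1 and 34.3 RPM in the WT libraries and 111, 104 and 89.9 RPM with KEE. For brm the Daed libraries held 42.8, 48.0 and 38.7 RPM with WT and 60.5, 51.7 and 49.7 RPM with deltaSAM. KEE was 3.10 times WT. The Daed groups did not overlap, with deltaSAM the higher, but brm was not called with deltaSAM. The subunit gene Bap60 (chrX:13157445-13159508) held 26.4, 28.3 and 22.2 RPM in the WT libraries and 91.3, 91.7 and 90.6 RPM with KEE. For Bap60 the Daed libraries held 37.7, 28.1 and 26.5 RPM with WT and 42.3, 33.8 and 19.3 RPM with deltaSAM. KEE was 3.56 times WT, and the Daed groups overlapped, with deltaSAM replicate 3 the lowest of the 6. The other chromatin members were Df31 (92.0 to 477 RPM from Armi WT to KEE), rno (59.1 to 263 RPM), the NuRD gene simj (54.7 to 223 RPM), the topoisomerase gene Top1 (148 to 579 RPM), the Polycomb gene ph-d (30.0 to 109 RPM), Ndf (108 to 369.9 RPM), tou (65.5 to 212 RPM) and the replication kinase regulator gene chif (97.3 to 315 RPM). The gene ph-d has a close tandem copy, ph-p, so its value is uncertain.

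The nuclear envelope and nuclear transport gave 5 members. These were the lamin gene LamC (80.9 to 243 RPM from Armi WT to KEE), the pore gene Nup153 (53.2 to 238 RPM), the exportin gene emb (49.5 to 182 RPM), the importin gene Tnpo (375 to 1188 RPM) and east (210.4 to 766 RPM). Tnpo was the only 1 of the 5 above 1000 RPM with KEE.

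Calmodulin, protein kinase A, protein phosphatases and the 14-3-3 proteins gave 10 members. The gene Cam (chr2R:12259398-12278809) encodes calmodulin, the main calcium sensor of cells, and had the largest KEE/WT ratio of all members. Its piRNAs measured 114, 99.8 and 122 RPM in the WT libraries and 962, 921 and 1036 RPM with KEE. For Cam the Daed libraries held 57.6, 46.4 and 58.7 RPM with WT and 59.4, 67.0 and 71.2 RPM with deltaSAM. KEE was 8.70 times WT, and the Daed groups did not overlap, with deltaSAM the higher. The gene Pka-C1 (chr2L:9682315-9699297), the catalytic subunit of protein kinase A, gave 108, 108 and 94.2 RPM in the WT libraries and 592, 563 and 578 RPM with KEE. For Pka-C1 the Daed libraries held 72.9, 68.4 and 71.6 RPM with WT and 82.3, 79.0 and 85.0 RPM with deltaSAM. KEE was 5.58 times WT. The Daed groups did not overlap, with deltaSAM the higher, but Pka-C1 was not called with deltaSAM. The anchoring protein gene Akap200 (chr2L:8415690-8431297), which tethers protein kinase A, gave 416, 416 and 484 RPM in the WT libraries and 1399.5, 1364 and 1729 RPM with KEE. For Akap200 the Daed libraries held 606, 596 and 649.5 RPM with WT and 704, 713 and 638 RPM with deltaSAM. KEE was 3.41 times WT, and the Daed groups overlapped. The regulatory subunit gene Pka-R2 went from 56.9 to 179.6 RPM.

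The gene mts (chr2L:7827650-7833576), the catalytic subunit of protein phosphatase 2A, gave 43.1, 48.4 and 45.2 RPM in the WT libraries and 254, 240.2 and 265 RPM with KEE. For mts the Daed libraries held 43.8, 42.5 and 46.5 RPM with WT and 41.7, 40.8 and 34.8 RPM with deltaSAM. KEE was 5.55 times WT. The Daed groups did not overlap, with deltaSAM the lower, but mts was not called with deltaSAM. A regulatory subunit of that phosphatase, wdb, went from 356 to 1216 RPM, and the type 1 catalytic subunit gene Pp1-87B, which has close paralogs and is therefore uncertain, from 30.3 to 111 RPM. The gene flfl (chr3R:13683921-13693905), a regulatory subunit of protein phosphatase 4, gave 445, 473 and 456 RPM in the WT libraries and 1565, 1611 and 1634 RPM with KEE. For flfl the Daed libraries held 266, 286 and 254 RPM with WT and 356, 357 and 282 RPM with deltaSAM. KEE was 3.50 times WT, and the Daed groups overlapped. The adaptor gene 14-3-3zeta (chr2R:10099677-10109687), whose product binds phosphorylated proteins, gave 644, 654 and 648 RPM in the WT libraries and 1928, 1951 and 2217 RPM with KEE. For 14-3-3zeta the Daed libraries held 310.4, 289 and 320.1 RPM with WT and 327, 357 and 374 RPM with deltaSAM. KEE was 3.13 times WT, and the Daed groups did not overlap, with deltaSAM the higher. The second gene of that family, 14-3-3epsilon, went from 125 to 525 RPM.

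Other signalling genes numbered 15, with KEE/WT from 3.02 to 4.49 and a median of 3.29. The casein kinase gene dco (chr3R:31054085-31061210), which acts in Wnt and Hippo signalling and the circadian clock, gave 130.1, 137 and 156 RPM in the WT libraries and 654, 636 and 609 RPM with KEE. For dco the Daed libraries held 88.7, 87.2 and 93.1 RPM with WT and 103, 105 and 109 RPM with deltaSAM. KEE was 4.49 times WT, and the Daed groups did not overlap, with deltaSAM the higher. The gene sty (chr3L:3401153-3424935), a feedback inhibitor of receptor tyrosine kinases, gave 313, 302 and 274 RPM in the WT libraries and 1235, 1276 and 1332 RPM with KEE. For sty the Daed libraries held 236, 223 and 235 RPM with WT and 259, 272 and 341 RPM with deltaSAM. KEE was 4.32 times WT, and the Daed groups did not overlap, with deltaSAM the higher. Of ligands, the fibroblast growth factor gene bnl went from 152 to 473 RPM, the EGF receptor ligand gene vn from 80.4 to 318 RPM and the semaphorin gene Sema2a from 119.8 to 361 RPM. The insulin receptor gene InR went from 75.2 to 231 RPM. Inside the cell were the JNK phosphatase gene puc (55.7 to 225 RPM), the kinase gene wnd (27.4 to 83.1 RPM), the polarity genes aPKC (137 to 424 RPM) and pins (73.6 to 223 RPM), the Hippo gene kibra (209 to 828 RPM), RasGAP1 (87.8 to 288 RPM), spri (33.8 to 140.3 RPM), cv-c (22.4 to 71.9 RPM) and the Arf exchange factor gene siz (16.3 to 54.4 RPM). Ligands, a receptor and downstream parts thus all appeared in the set, at KEE means of 54.4 to 1281 RPM.

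Chaperones gave 3 members. The gene Stip1 (chr2L:295122-297449), which links the chaperones Hsp70 and Hsp90, gave 56.7, 52.2 and 48.6 RPM in the WT libraries and 361, 366 and 358 RPM with KEE. For Stip1 the Daed libraries held 48.4, 54.6 and 56.6 RPM with WT and 78.2, 61.5 and 51.9 RPM with deltaSAM. KEE was 6.89 times WT, and the Daed groups overlapped. The DnaJ family gene Droj2 (chr3R:13382106-13385283) gave 54.1, 42.0 and 58.8 RPM in the WT libraries and 217, 235 and 226 RPM with KEE. For Droj2 the Daed libraries held 51.5, 50.2 and 53.7 RPM with WT and 75.2, 67.5 and 37.5 RPM with deltaSAM. KEE was 4.38 times WT, and the Daed groups overlapped, with deltaSAM replicate 3 the lowest of the 6. The third was Hsp110, at 29.8 to 109 RPM from Armi WT to KEE.

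Ubiquitin genes gave 5 members. The scaffold gene Cul3 (chr2L:15265245-15272024) of a ubiquitin ligase gave 46.8, 51.8 and 51.98 RPM in the WT libraries and 179, 167 and 154 RPM with KEE. For Cul3 the Daed libraries held 34.2, 31.5 and 24.3 RPM with WT and 38.8, 41.9 and 28.7 RPM with deltaSAM. KEE was 3.32 times WT, and the Daed groups overlapped. The gene inc (chrX:1483479-1517615), a substrate adaptor of that ligase, gave 494, 508 and 459 RPM in the WT libraries and 1477, 1511 and 1417 RPM with KEE. For inc the Daed libraries held 466, 501 and 453 RPM with WT and 488, 409 and 362 RPM with deltaSAM. KEE was 3.02 times WT, and the Daed groups overlapped. The deubiquitinase gene puf (chr3R:24635270-24650043) gave 33.7, 40.7 and 41.4 RPM in the WT libraries and 155, 157 and 145 RPM with KEE. For puf the Daed libraries held 42.8, 36.4 and 48.0 RPM with WT and 34.7, 29.4 and 32.6 RPM with deltaSAM. KEE was 3.95 times WT, and the Daed groups did not overlap, with deltaSAM the lower. The others were the ligase gene ari-2 (15.6 to 77.8 RPM from Armi WT to KEE) and the deubiquitinase gene Usp2 (79.5 to 269 RPM).

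The cytoskeleton and cell junctions gave 11 members, with a median KEE/WT of 4.10. The profilin gene chic (chr2L:5972115-5981018), whose product delivers actin monomers, gave 221, 225 and 182 RPM in the WT libraries and 880.2, 927 and 872 RPM with KEE. For chic the Daed libraries held 206, 201 and 124 RPM with WT and 207, 199 and 198 RPM with deltaSAM. KEE was 4.26 times WT, and the Daed groups overlapped, with WT replicate 3 well below the other 5. The gene Moe (chrX:8873012-8898332), which ties actin to the plasma membrane, gave 70.8, 69.4 and 71.2 RPM in the WT libraries and 301, 288 and 294 RPM with KEE. For Moe the Daed libraries held 41.3, 38.1 and 50.1 RPM with WT and 42.9, 38.7 and 37.5 RPM with deltaSAM. KEE was 4.18 times WT, and the Daed groups overlapped. Other actin genes were tmod (72.0 to 332 RPM from Armi WT to KEE), coro (157 to 713 RPM) and cib (117 to 355 RPM), and the tubulin acetyltransferase gene Atat went from 52.6 to 165 RPM. At junctions were cno (147 to 729 RPM), the gap junction genes Inx2 (113 to 465 RPM) and Inx3 (68.8 to 282 RPM) and the septate junction gene Lac (35.5 to 141 RPM), and the cell surface gene Ten-m went from 93.6 to 316 RPM.

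Membrane traffic, proton pumps and lipid metabolism gave 9 members. The gene Vha16-1 (chr2R:6625242-6633090), the membrane ring subunit of the vacuolar proton pump, took the most reads of all members. Its piRNAs measured 1980.3, 1979 and 1657 RPM in the WT libraries and 5962, 7515 and 6389 RPM with KEE. For Vha16-1 the Daed libraries held 1025, 1044 and 995 RPM with WT and 1217, 1186 and 1008 RPM with deltaSAM. KEE was 3.54 times WT with no overlap, and the Daed groups overlapped. RPM is not divided by gene length, so this order is one of reads and not of piRNAs per base. The GTPase gene Rab11 (chr3R:21111408-21116146) of recycling endosomes gave 13.6, 16.7 and 12.1 RPM in the WT libraries and 61.6, 61.9 and 62.3 RPM with KEE. For Rab11 the Daed libraries held 21.9, 21.5 and 13.6 RPM with WT and 24.1, 24.0 and 27.1 RPM with deltaSAM. KEE was 4.39 times WT at low levels. The Daed groups did not overlap, with deltaSAM the higher, but Rab11 was not called with deltaSAM. The coat gene Sec24AB (chr2R:9876232-9882357) of vesicles leaving the endoplasmic reticulum gave 90.6, 86.1 and 83.6 RPM in the WT libraries and 374, 357 and 393 RPM with KEE. For Sec24AB the Daed libraries held 87.2, 86.6 and 73.8 RPM with WT and 96.4, 90.4 and 85.6 RPM with deltaSAM. KEE was 4.32 times WT, and the Daed groups overlapped. The others were the retrieval receptor gene KdelR (44.1 to 199 RPM from Armi WT to KEE), Vsp37A (15.6 to 71.6 RPM), the lipid transfer gene vib (129 to 455 RPM), the phospholipase gene sws (30.3 to 130.3 RPM), the heparan sulfate enzyme gene Hs6st (24.5 to 114.7 RPM) and the mitochondrial ATP synthase gene ATPsynC (335 to 1035 RPM).

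Members known here by a symbol without a role numbered 17, with a median KEE/WT of 3.24. They were mask (the one with the most reads, 270.3 to 811 RPM from Armi WT to KEE), Bacc, hzg, Tmep, alt, be, tay, lin, Chchd2, wge, Amun, Mf, red, Ptip, Naa30A, toc and sigmar. Of these, lin had the largest KEE/WT ratio at 4.10.

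Symbols that are only a CG number stood for 21 members, or 14.7%, against 21.3% of the eligible genes. Among the genes that met the KEE limit but not the deltaSAM range the share was 15.3%. The gene CG3198 (chrX:6668539-6673973) gave 34.5, 35.5 and 29.0 RPM in the WT libraries and 207, 213 and 197 RPM with KEE. For CG3198 the Daed libraries held 33.6, 26.5 and 23.6 RPM with WT and 42.3, 34.3 and 32.0 RPM with deltaSAM. KEE was 6.24 times WT, and the Daed groups overlapped. The rest were CG5953, CG4768, CG31635, CG14194, CG42788, CG9393, CG2218, CG43736, CG10492, CG13917, CG31676, CG3548, CG33695, CG11357, CG4168, CG10555, CG9775, CG12942, CG32512 and CG7220, with KEE means of 43.3 to 605 RPM. A further 2 members had an identifier without a symbol. FBgn0267727 gave 124, 123 and 123 RPM in the WT libraries and 673, 648 and 666 RPM with KEE. For FBgn0267727 the Daed libraries held 171, 165 and 150.4 RPM with WT and 174, 162 and 111 RPM with deltaSAM. KEE was 5.37 times WT, and the Daed groups overlapped. FBgn0026370 went from 167 to 834 RPM.

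**Figure D4:**
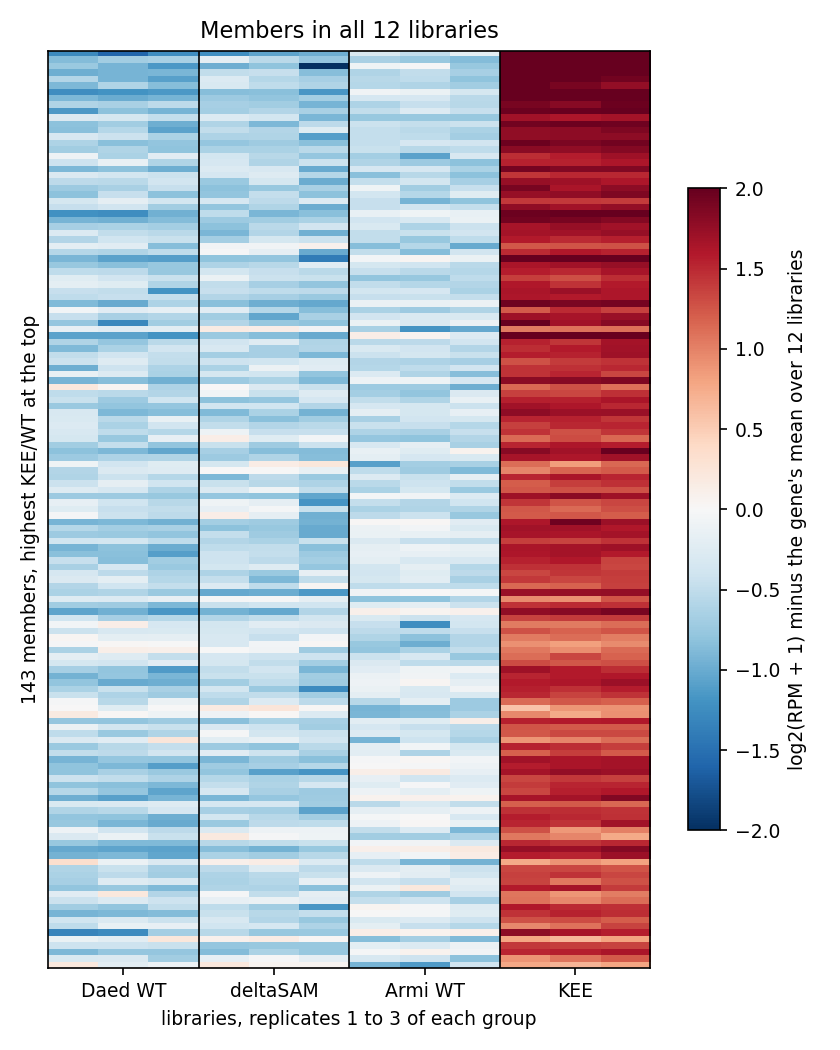
Level of each of the 143 members (horizontal stripes, highest KEE/WT ratio at the top) in the 12 libraries, as log2(RPM + 1) minus the gene's mean over the 12, in blue where low and red where high, with the colour scale ending at -2 and 2. The 3 KEE libraries are red for all members, while the other 9 also differ from each other in some members.

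Replicates of the members lay close together. The coefficient of variation over the 3 KEE libraries had a median of 4.04%, against 5.43% over the eligible genes, and over the 3 Armi WT libraries 8.74% against 8.64%. Levels were unlike with KEE, at median means of 292 RPM for the members and 102 RPM for the eligible genes. With Armi WT they were 77.4 and 73.5 RPM. The lower KEE figure is therefore not read as a trait of the members. The fewest reads behind a member in any library were 19, and the median of that lowest count was 79. The lowest values thus rested on few reads, and the members near 20 RPM are the least certain.

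With deltaSAM 28 members were called higher and 10 lower than with WT, where 17.3% of all genes tested were called higher, 18.9% lower and 36.2% in either direction (limma, adjusted p under 0.05). The libraries of the groups did not overlap in 45 members. Among the eligible genes this held for 66%. The rule bounded this contrast, so nothing is read from these shares. The 10 lower members were spri, wdb, rno, puf, CG7220, Ncoa6, CG31635, E2f1, Tnpo and coro. The lowest ratio among them was that of wdb, whose 235, 238 and 217 RPM with WT and 179, 182 and 163 RPM with deltaSAM did not overlap. The 28 higher members included chinmo, 14-3-3zeta, pAbp, Cam, nej, zfh1, aPKC, kibra, bnl, sty, sd, dco, flfl, D1, Df31 and yps. Their direction depended on the scaling. Scaled to the reads assigned to genes, 0 members were called higher and 39 lower, where 10.4% of all genes tested were higher and 25.6% lower. Centred on the median gene, 68 were called higher and 0 lower, where 24.7% and 11.2% of all genes were. With edgeR and TMM factors the split was 19 and 10 (23.4% and 22% of all genes), with DESeq2 28 and 1 (17.9% and 11.6%), and in a fit of the 6 Daed libraries alone 10 and 2 (13.9% and 13.6%). Without the 2 libraries that stood apart it was 40 and 9 (17.7% and 18.7%). Neither direction of the members with deltaSAM therefore held over these scalings. Over the same 8246 genes the median log2 change went from -0.10 as deposited to -0.29 at the gene-table total and 0.11 when centred. At the gene-table total more genes passed the filter on low values, 9249 in all.

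The 2 wild-type groups also differed, and they came from different knockdowns with different rescue plasmids. The ratio of Armi WT to Daed WT had a median of 1.15 over the members (0.554 to 2.31), against 1.25 over the eligible genes. It was above 1 in 87 members (60.8%, against 71.1% of the eligible genes) and at least 2 in 8 members (5.59% against 11.2%). The smallest ratios were those of Chchd2 (93.6 to 51.8 RPM from Daed WT to Armi WT), CG33695 (23.8 to 13.5 RPM) and so (23.1 to 13.1 RPM), and the largest those of sigmar (18.0 to 41.5 RPM), chinmo (629.6 to 1439 RPM) and Bacc (87.3 to 193 RPM). Of the members 56 were called higher with Armi WT and 17 lower, where 18.9% of all genes tested were called higher, 6.35% lower and 25.3% in either direction. The libraries did not overlap in 83 members and in 66.2% of the eligible genes. Both groups are denominators of the rule, so this too is a description. The split moved to 34 and 58 at the gene-table total, where 9.28% of all genes tested were called higher and 16.3% lower. It was 43 and 37 with TMM factors (21.9% and 17.2% of all genes), 46 and 26 with DESeq2 (18.8% and 9.71%) and 63 and 15 when centred (20.9% and 5.06%). The split over all genes thus moved with the scaling as well. Knockdown and experiment cannot be told apart in this contrast.

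The number of genes that met the rule depended on how libraries were scaled. At the gene-table total 73 genes met it, 55 of them members, and the members' median KEE/WT ratio was 2.86. Of the 143 members 65 still met the KEE limit there and 124 the deltaSAM range. With TMM factors 57 genes met it (51 members), with DESeq2 size factors 51 (44 members) and centred on the median eligible gene 46 (35 members). The KEE limit was met by 51, 51 and 41 members under these 3 scalings, and the deltaSAM range by 143, 127 and 131. The lowest KEE/WT ratio of any member was 2.38, 2.24, 2.24 and 2.17 at the gene-table total, with TMM, with DESeq2 and when centred. All 143 members therefore stayed above their Armi WT mean under each of the 4, while most fell below the limit of 3. Members were called higher with KEE in all 143 cases under the gene-table total, the centring on the median gene, edgeR with TMM factors and DESeq2 as well, where 18.3%, 20.2%, 33% and 19.4% of all genes tested were called higher. Over the same 8246 genes the median log2 change with KEE went from 0.30 as deposited to 0.05 at the gene-table total and -0.05 when centred, against 1.82, 1.51 and 1.47 for the members.

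**Figure D5:**
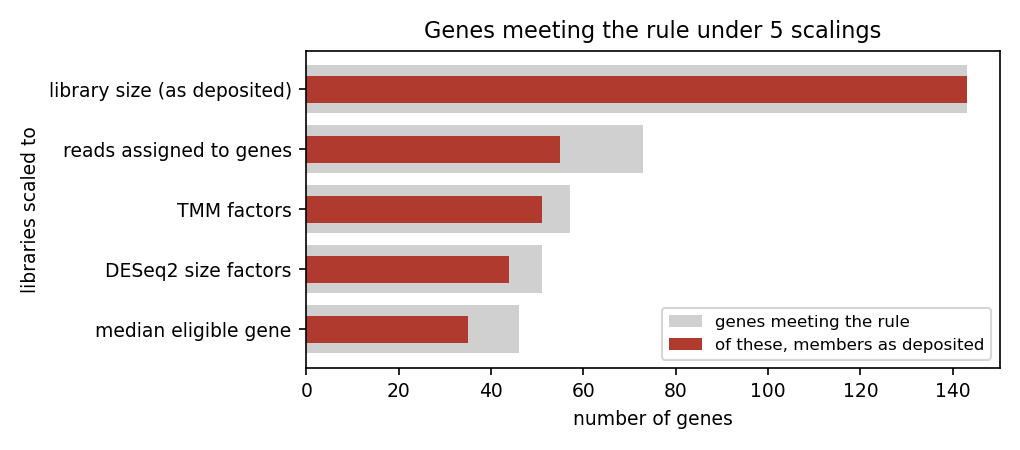
Number of genes that meet the rule when libraries are scaled in 5 ways (grey bars), and how many of these are among the 143 members found with the deposited library sizes (red bars). The number goes from 143 as deposited to 46 when libraries are centred on the median eligible gene, of which 35 are members.

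Coordinates in the annotation of the dm6 assembly were found for 141 of the 143 members, and all 141 were protein-coding genes. Their spans had a median of 10268 bp, against 5687 bp over the eligible genes, 6152.5 bp over the genes that met the KEE limit but not the deltaSAM range and 6432.5 bp over all eligible genes in that range. Spans over 50000 bp were found in 11 members (7.80%, against 5.18%), and the median number of annotated transcripts was 4 against 3. Chromosome arm X held 31 members, 2L 24, 2R 22, 3L 27 and 3R 37. Chromosome 4 held 0, where 43 eligible genes (1.66%) lie, and it also held 0 of all genes that met the KEE limit. Counts were given per gene, so exons, introns and untranslated regions cannot be told apart. Whether strand was used in counting is not given in the sources used here, so genes that overlap are uncertain. Another annotated gene overlapped 73 members (51.8%, against 49.7% of the eligible genes), and in 8 of these it had at least 20 RPM (5.67% against 12.8%). These 8 were CG4768 with CG9132, sws with sn, prage with Adar, east with Actn, Akap200 with grk, Usp2 with CG14613, CG32512 with bves and LamC with ttv. Members that were direct neighbours among protein-coding genes came in 3 pairs, where the 2615 eligible genes held 663 such pairs. These were Tmep and CG13917 on 3L, InR and E2f1 on 3R and wdb and pins on 3R, with 369, 983 and 599 bp between their spans.

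Lists of related genes show how genes that are not members moved with KEE, and the counts of calls leave the members out. The SWI/SNF list held 11 such tested genes, of which 8 were called higher and 0 lower (limma, adjusted p under 0.05). Over all tested genes that are not members 31.8% were higher and 11.9% lower, against 17% and 15.2% at the gene-table total. With the median gene as the reference these shares were 18.8% and 20.8%. All of these shares include many genes of low level, from 1 RPM up. With the filter at 10 RPM, 2144 of 4136 genes that are not members were called higher as deposited and 814 lower. The share called higher thus depends on the level of the genes compared, and no list was matched for level. At the gene-table total 4 genes of the list were called higher and centred 3, with 0 lower in both. Of its 8 eligible genes 3 were members and 5 met the KEE limit. The other 2 were the actin gene Act5C (211 to 998 RPM from Armi WT to KEE, log2 change 2.24 ± 0.10) and Bicra (727 to 2679 RPM, 1.88 ± 0.07). Both fell with deltaSAM, Act5C from 258 to 188 RPM (-0.46 ± 0.10) and Bicra from 683 to 478 RPM (-0.52 ± 0.07), and so lay outside the rule's range. With deltaSAM 1 of the 11 genes was called higher and 6 lower as deposited. These were 1 and 7 at the gene-table total, and 1 and 3 with the median gene as the reference. Over the 8103 tested genes that are not members, 1401 were higher with deltaSAM and 1548 lower as deposited. At the gene-table total these were 962 and 2326 of 9106, and when centred 1966 and 923 of 8103.

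Of 17 tested chaperone and co-chaperone genes 15 were higher and 0 lower with KEE, and 10 were higher at the gene-table total and when centred. Stip1 and Droj2 are members and not among them. HIP-R went from 15.8 to 154 RPM (3.21 ± 0.16) and the endoplasmic reticulum chaperone gene Hsc70-3 from 736 to 3390.2 RPM (2.20 ± 0.09). Those 2 were also higher with deltaSAM, at log2 changes of 0.53 ± 0.16 and 0.73 ± 0.09. Among RNA-binding proteins 37 of 49 were higher and 7 lower with KEE, or 31 and 8 at the gene-table total and when centred. Here rin (113 to 578 RPM, 2.35 ± 0.09), CNBP (491 to 2395 RPM, 2.28 ± 0.07) and spen (374 to 1805 RPM, 2.27 ± 0.08) met the KEE limit and fell with deltaSAM, at log2 changes of -0.66 ± 0.09, -0.70 ± 0.07 and -0.76 ± 0.08. Of the 45 eligible genes of that list 12 met the KEE limit, 3 of them members. The list did not fall as a whole, as 23 of its 49 genes were called higher with deltaSAM and 9 lower. At the gene-table total these were 15 and 13, and the counts over all genes that are not members are given above. With KEE the BTB factors had 9 higher and 2 lower of 14 and the other transcription factors 21 and 2 of 35. The actin regulators had 27 and 4 of 44 and the ubiquitin ligases and deubiquitinases 22 and 1 of 33. Wnt signalling had 14 higher and 3 lower of 23, vesicle traffic 17 and 7 of 37 and calcium signalling 7 and 4 of 16. Of the 13 eligible calcium genes only the member Cam met the KEE limit. At the gene-table total, against the 17% and 15.2% above, these 7 lists had 7 and 3, 16 and 6, 22 and 5, 19 and 4, 11 and 4, 12 and 11, and 6 and 5. The somatic piRNA pathway had 6 higher and 4 lower of 21, or 1 and 6 at the gene-table total, and 0 of its 12 eligible genes met the KEE limit. As results of these data were known when the lists were written, the counts describe the lists and no test of a list was made.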

How the data were processed

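Piwi-bound small RNA libraries of OSC were analysed from the deposited gene table, whose values are RPM, reads scaled to the library size by the authors, per the file headers. Per the submitters' processing notes the tools were STAR and HTSeq and the builds BDGP6 and dm6, with no version given. The strand setting and the treatment of reads that match several places are not given in the sources used here. The transposon table was not used here. Reads were recovered by taking the smallest RPM above 0 of each library as a single read. Of the values above 0, 100% came back to whole reads within 0.01 of a read, with inferred libraries of 1396369 to 3995009 reads.

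Ratios were taken from group mean RPM. Calls came from limma (trend, all 12 libraries in 1 fit) on log2(RPM + 1) over 8246 genes with at least 1 RPM in at least 3 libraries, with Benjamini-Hochberg adjustment over all of them at 0.05, after the procedure was tested on simulated data. A fold change on this scale understates the change of low genes. On recovered reads, edgeR's quasi-likelihood test at the deposited library sizes called 3061 genes higher and 1167 lower with KEE and 1294 and 1277 with deltaSAM. Alternatives were other pseudocounts, filters, scalings (gene-table total, centring, TMM), DESeq2, a replicate block, limits of the rule and libraries left out.

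Named with all values were the 12 members with the highest KEE/WT, the 12 with the highest KEE mean and every member of 11 gene lists, 38 genes in all. The members and lists were chosen with earlier results of these data known, and roles were given after the symbols were seen. Symbols (17340 of 17469 identifiers) and coordinates came from the RefSeq gene table for the assembly Release 6 plus ISO1 MT. Software was Python 3.11.15 with pandas 2.3.3, numpy 2.4.6 and matplotlib 3.10.9, and R 4.3.3 with DESeq2 1.42.0, edgeR 4.0.16 and limma 3.58.1.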

Additional observations from a re-analysis of the deposited data

Results flagged for a closer look

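The KEE effect in the Armi knockdown and the deltaSAM effect in the Daed knockdown differed at 143 of the 143 members, where the test of the difference itself was used (limma with Benjamini-Hochberg adjustment over 8246 genes). The KEE effect was the larger in each. Over all genes tested the KEE effect was called the larger in 29.4% and the smaller in 11%. The median log2 difference between the effects was 1.81 over the members and 0.44 over all genes tested. When centred on the median gene these medians were 1.245 and -0.12, so the value over all genes depended on the scaling. The members were chosen for a difference between the effects, so the count follows from the choice. The 2 effects came from different knockdowns. Groups of 3 libraries were too small for a test of single libraries that stand apart.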

How the results depend on the processing

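The rule found 143 genes as deposited. It found 73 at the gene-table total, 57 with TMM factors, 51 with DESeq2 size factors and 46 when centred on the median eligible gene, an alternative added after the data had been seen. It found 206 with at least 5 RPM, 93 with at least 50 RPM, 136 with medians of replicates, 372 with KEE/WT at least 2, 52 with at least 4 and 55 with deltaSAM at most 10% under or 11% over WT. Members called with deltaSAM went from 38 to 68 when centred on the median gene and to 12 with the 6 Daed libraries alone. The summed share of the members with KEE was 7.52% of library reads and 9.46% of gene reads. With 1 library left out in turn, the rule found 137 to 145 genes, and 143 to 143 members were called with KEE, 143 to 143 in the difference between the effects, 26 to 41 with deltaSAM and 64 to 81 between the WT rescues, while the summed share was 7.47 to 7.59%. Of all 8246 genes tested, 2355 to 2832 were then higher with KEE and 2113 to 2472 in the difference. With deltaSAM 1287 to 1433 were higher and 1305 to 1538 lower, and between the WT rescues 1365 to 1660 and 371 to 621. Without both libraries that stood apart, also added after the data had been seen, 138 genes met the rule, 49 members were called with deltaSAM and 81 between the WT rescues. There 17.7% of all genes tested were higher and 18.7% lower with deltaSAM, and 19.5% and 7.52% between the WT rescues. The 38 named genes kept their direction and call with KEE in all 912 combinations with 24 alternatives. They are members, chosen for a high KEE/WT ratio in these same libraries, so this follows from the choice. As deposited, 33% of all genes tested were called higher with KEE.

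The labels do not say that shared replicate numbers pair the samples, and the main fit did not treat them as pairs. Over 18 pairs with the same number the correlation of deviations was -0.0133 to 0.0632, and 0 were over 0.1, although 10 of 12 samples correlated best with their own number, a hint from the data and not the design. With a replicate block 143 members were called with KEE, 143 in the difference, 41 with deltaSAM (31 higher, 10 lower) and 74 between the WT rescues, and the genes called with KEE were 2750 higher and 980 lower. Of all 8246 genes, the block fit called 2433 higher and 919 lower in the difference. It called 1450 higher and 1586 lower with deltaSAM, and 1597 and 549 between the WT rescues. With TMM factors edgeR called 1800 genes higher and 1689 lower with KEE. Depth limits the members near 20 RPM, the lowest of which rested on 19 reads in 1 library.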
